A study of Mus musculus with 22 samples.

Results

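The interferon-stimulated genes and RNA sensors are 45 named genes of the antiviral response, chosen by symbol: 11 RNA sensors, 6 signalling factors and 28 effectors. Rows for 44 of them were matched in the RNA libraries, among 16271 genes in all, and Rnf213 was not matched and is not analysed here. The study profiled RNA and chromatin of primary mouse embryonic fibroblasts, which are connective tissue cells grown from the embryo for a few passages. Cells were taken from the bodies of E13.5 embryos of strain C57BL/6 and used at passage 3-4. Wild-type (WT, Lsh+/+) cells were compared with Lsh KO (Lsh-/-) cells, which lack Lsh, a chromatin remodelling protein encoded by Hells that is needed for normal DNA methylation. Each genotype had 2 RNA libraries, called WT1, WT2, KO1 and KO2 after the replicate number in their labels. No virus, interferon or other agent is named in the labels, so all values are of cultures without a labelled stimulus. Which part of Hells was deleted, and how many embryos went into a library, is not given in the sources used here.

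Cells detect viral RNA, and sometimes their own, through sensor proteins such as RIG-I, MDA5 and PKR. RIG-I and MDA5 act through the adaptor MAVS to switch on interferon genes, and secreted interferon then acts on cell surface receptors that activate a complex of transcription factors, STAT2 and IRF9 among them. This complex binds the interferon-stimulated response element in the promoters of the effector genes, which include many of the sensors themselves. Fibroblasts make and answer type I interferon. Lsh is known for keeping repeated DNA methylated, and transcripts of such repeats are among the cellular RNAs that the sensors can bind.

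Hells had 0.865 (WT1), 1.06 (WT2), 0.430 (KO1) and 0.550 RPKM (KO2), so its direction followed the labels. RPKM is reads per kilobase of transcript and per M (mega) mapped reads. The libraries held 122.5 to 176.4 M mapped reads, so that 1 read in a transcript of 1 kilobase is worth 0.00567 to 0.00817 RPKM. The libraries differed by replicate number, and KO and WT are therefore compared within each number as well as across them. The 11 fibroblast markers summed to 2883 (WT1), 3133 (WT2), 3100 (KO1) and 3055 RPKM (KO2), but abundant genes such as Vim carried much of this sum. Lum had 0.718 (WT1) and 1.27 RPKM (KO1) against 108.2 (WT2) and 104.6 (KO2). Pdgfra had 0.987 and 2.46 against 23.2 and 23.1 in the same order, so some fibroblast markers were low in the replicate 1 libraries. Others went the other way, such as S100a4 with 277 and 313 against 35.6 and 45.8. Both replicate 2 libraries lay above both replicate 1 libraries for 7 of the 11 markers and below them for 4. Over all 16271 genes this held for 8226 and 2895.

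Most of these genes were somewhat higher without Lsh, and 2 of them, Ifi27l1 and Isg15, passed a test that takes account of the replicate number, whereas none passed without it. Of the 44 genes, 27 were higher in KO than in WT within both replicate numbers and 6 were lower within both, against 23.1% and 29.0% of all 16271 genes. By role, 6 of 11 sensors, 4 of 6 signalling factors and 17 of 27 effectors were higher within both numbers. Both KO libraries lay above both WT libraries for 6 genes (Zbp1, Ifi44, Ifi27l1, Ifi204, Ifi205 and Gbp2), against 7.79% of all genes. Both lay below for 0, against 1305 of all 16271 genes. For the other genes the WT and KO ranges overlapped, often with WT2 above KO1. As the libraries are bulk RNA, a change in the number of cells with an interferon response and a change in RNA per cell cannot be told apart.

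The test was limma on log2(RPKM + 0.5), a scale that understates the change of low genes, for the 11149 genes that reached 0.5 RPKM in 2 or more libraries. This held for 32 of the 45 genes, of which Ifi44 reached 0.5 RPKM in the KO libraries alone. When genotype was the only term, 0 of 11149 genes (0%) and 0 of the 32 passed an adjusted p of 0.05, and 2 of the 32 had an unadjusted p below 0.05, against 41 of 11149 genes. When the replicate number was added to the model, 2 of the 32 rose, against 0.377% of all genes tested, and 0 fell, against 0.296%. "Rose" and "fell" refer to that limma fit throughout. At an unadjusted p below 0.05 it had 12 of the 32 higher in KO, against 4.18% of all genes tested. It had 0 lower, against 549 of the 11149 genes tested. The median log2 difference between KO and WT was 0.28 over the 32 genes and -0.02 over all genes tested, and by role it was 0.29 for 5 sensors, 0.19 for 5 signalling factors and 0.40 for 22 effectors. Within replicate 1 the median was 0.25, against -0.07 over all genes tested, and within replicate 2 it was 0.39, against 0.02. Without the number in the model these values depend on every library: leaving out WT1 gave a median of -0.17 (all genes tested -0.12) with 22 of 32 lower in KO, and leaving out KO2 gave -0.11 (all genes tested -0.17) with 21 of 32 lower. Leaving out WT2 gave 0.67 (all genes tested 0.07) and leaving out KO1 gave 0.75 (all genes tested 0.12). Each of these fits sets a lone library of one replicate number against libraries of both numbers. The p-values rest on these 4 libraries alone, and the labels do not say that a number marks a shared litter or day. With the number in the model 1 residual degree of freedom is left. The variance pooled over genes, more than the spread of each gene itself, then sets the p-values.

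**Figure D1:**
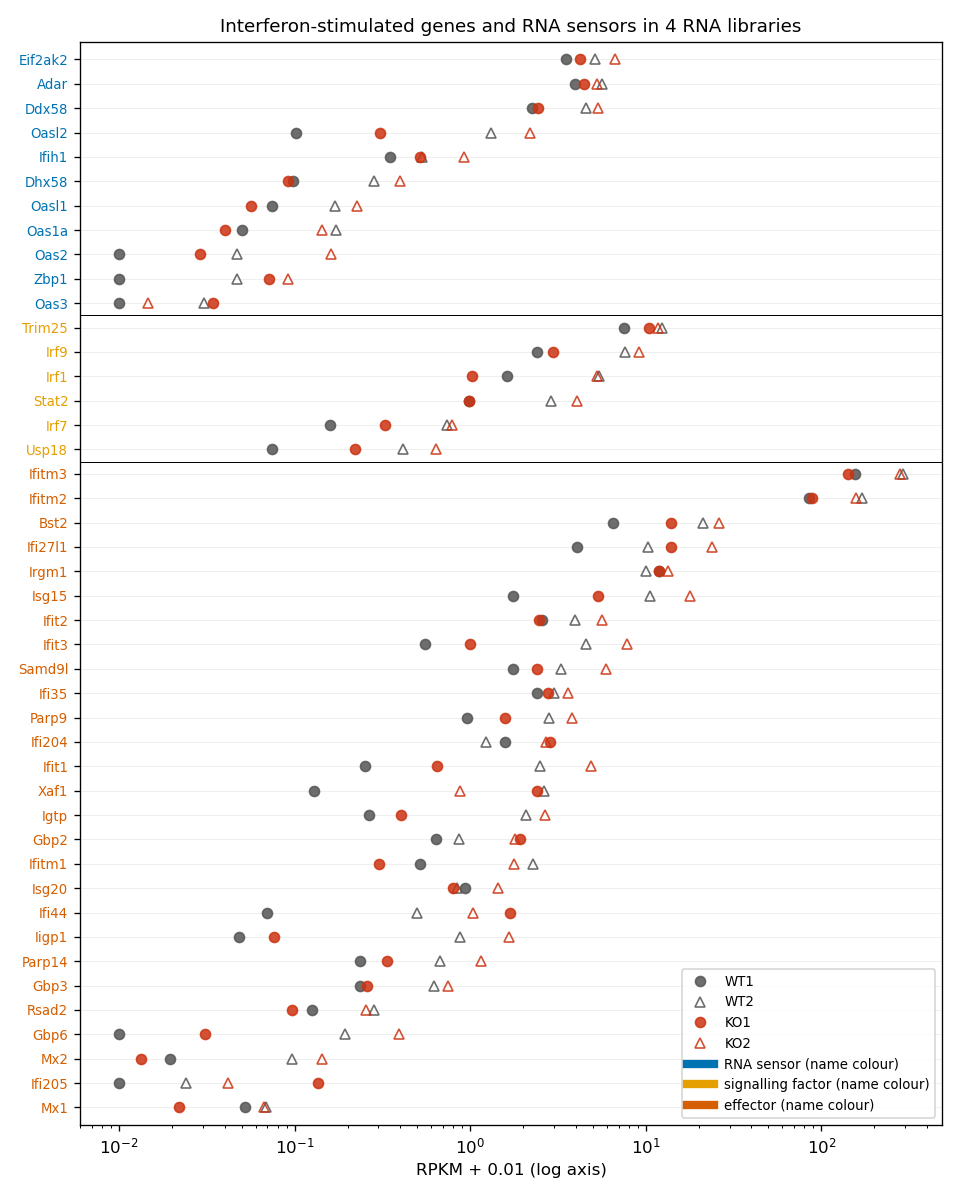
RPKM + 0.01 on a log axis of the 44 genes in WT1, WT2 (grey circle, open triangle), KO1 and KO2 (red circle, open triangle), grouped by role and ordered by mean level. Levels run from 0 to the 291.1 RPKM of Ifitm3 in WT2, and the replicate 2 libraries are mostly to the right of the replicate 1 libraries.

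The promoters of 32 of the 45 genes are in the RefSeq promoter table (GRCm38.p6), which gives 250 bases before and 50 bases after the annotated start. Shown first are members given with SE and adjusted p below, limited to those whose promoter held a match to the response element. Interferon signalling acts through this element. Capitals mark each match to GAAANNGAAA, the core of the interferon-stimulated response element, on either strand and with overlapping matches counted, and only bases before the start are printed, 5′ to 3′ on the strand of the gene. These positions are of another build than the RPKM rows (mm9) and were not converted.
Isg15, chr4:156200819-156201068, minus strand: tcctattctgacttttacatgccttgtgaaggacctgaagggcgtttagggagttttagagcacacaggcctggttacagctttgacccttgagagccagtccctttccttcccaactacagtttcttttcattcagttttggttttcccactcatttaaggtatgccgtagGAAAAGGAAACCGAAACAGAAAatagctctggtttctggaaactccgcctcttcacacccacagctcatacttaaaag
Ifit1, chr19:34640784-34640843, plus strand: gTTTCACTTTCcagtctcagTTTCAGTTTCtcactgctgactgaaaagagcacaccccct
Ifit3, chr19:34583387-34583446, plus strand: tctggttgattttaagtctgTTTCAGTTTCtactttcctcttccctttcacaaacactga
Bst2, chr8:71537557-71537616, minus strand: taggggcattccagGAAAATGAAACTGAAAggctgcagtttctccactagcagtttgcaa
Gbp2, chr3:142620584-142620643, plus strand: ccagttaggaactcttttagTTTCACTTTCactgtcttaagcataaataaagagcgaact
Isg15 had 3 overlapping cores from position -78 to -57, where -1 is the base just before the start. Ifit1 had 2 cores in the stretch shown, Ifit3 1 core there and 1 further from the start, Bst2 2 overlapping cores and Gbp2 1 core at -59 to -50. Cores were also present in genes with smaller differences between KO and WT than these, 3 of which follow for comparison. Their log2 differences were 0.27 (Igtp), 0.20 (Irgm1) and -0.03 (Ifitm2), against a median of 0.28 over the 32 tested genes.
Igtp, chr11:58199502-58199555, plus strand: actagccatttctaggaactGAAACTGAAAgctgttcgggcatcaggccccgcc
Irgm1, chr11:48871421-48871464, minus strand: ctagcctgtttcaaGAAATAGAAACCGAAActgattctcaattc
Ifitm2, chr7:140955968-140956027, minus strand: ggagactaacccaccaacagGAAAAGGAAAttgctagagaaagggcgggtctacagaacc

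Over the promoter table, 18 of the 32 genes (56.2%) had at least 1 such core, against 1131 of 32851 promoters (3.44%) and 3.99% of genes with a promoter. The gamma-activated site TTCNNNGAA is a promoter element of the response to interferon gamma and was also searched on both strands with overlaps counted. It was in 10 of the 32 (31.2%), against 8.30% of promoters and 9.55% of genes with a promoter. In Ifih1, Ddx58, Eif2ak2 and Ifitm3 the cores lay after the start. The 14 tested genes with a core had a median log2 difference of 0.28 between KO and WT, and the 13 tested genes whose promoter held none had 0.20. The 5 tested genes with no promoter in the table had the highest median, 0.44. Ifi44, Samd9l, Xaf1 and Oasl2 were among the genes without a core in this window, and Ifi27l1 and Ifi204 had no entry in the table. A match is a description of the letters, not a bound site, and the differences ran from -0.10 to 1.06 with a core and from -0.32 to 1.30 without.

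**Figure D2:**
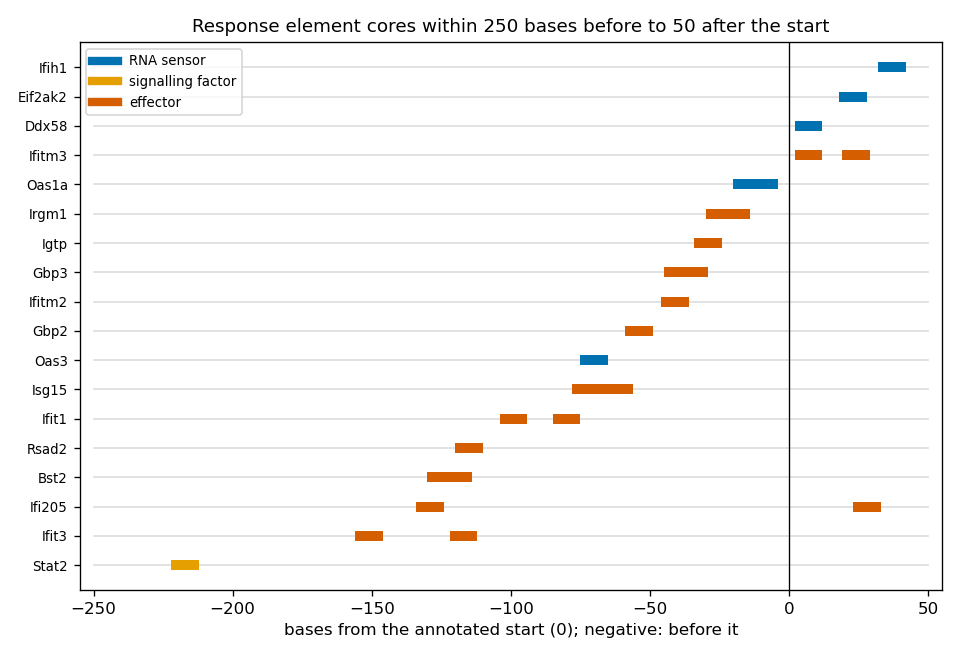
Position of each interferon-stimulated response element core (bars, coloured by role) in the 18 genes that have 1 or more, in bases from the annotated start. The grey lines span the 250 bases before to 50 bases after the start, and most cores lie before it.

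Among the RNA sensors, the helicases that bind viral RNA were at low to moderate levels. Ifih1, which encodes MDA5, had 0.337 (WT1), 0.521 (WT2), 0.510 (KO1) and 0.916 RPKM (KO2). Ddx58, which encodes RIG-I, was at 2.25 and 4.53 RPKM in WT and at 2.43 and 5.36 RPKM in KO, replicate 1 before replicate 2 here and below. For both helicases KO was the higher within each number, and WT2 exceeded KO1. Eif2ak2 encodes PKR, the kinase that stops translation on binding duplex RNA, and was at 3.51 and 5.10 RPKM in WT and 4.19 and 6.67 RPKM in KO. Oasl2, a relative of the oligoadenylate synthetases, was at 0.0917 and 1.31 RPKM in WT and 0.297 and 2.18 RPKM in KO, with a log2 difference of 0.50 (SE 0.16, limma adjusted p 0.28). Adar encodes an enzyme that edits duplex RNA so that MDA5 no longer reacts to it, and it was at 3.97 and 5.60 RPKM in WT and 4.42 and 5.27 RPKM in KO. It was the only tested sensor of the 5 that lay on different sides in the replicate numbers, with log2 differences of 0.14 and -0.08. At an unadjusted p below 0.05 in limma with the number, 2 of the 5 tested sensors were higher in KO and 0 were lower, against 466 (4.18%) and 549 of the 11149 genes tested, and none passed after adjustment.

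The other 6 sensors did not reach the minimum for the test. Zbp1, a sensor of nucleic acids in the Z form, was listed at 0 in WT1 and was at 0.0370 in WT2, 0.0617 in KO1 and 0.0813 RPKM in KO2. The KO libraries were the higher, at levels where few reads decide the value. Dhx58, which encodes the helicase LGP2, was at 0.0878 and 0.272 RPKM in WT and 0.0812 and 0.390 RPKM in KO, so the replicate numbers differed in direction. The oligoadenylate synthetase genes Oas1a, Oas2 and Oas3, of the family that activates RNase L, and their relative Oasl1 lay between 0 and 0.218 RPKM in all libraries. Within both numbers Oas1a was lower in KO and Oas2 was higher, whereas Oas3 and Oasl1 had no common direction.

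The signalling factors relay the interferon signal, and none of the 5 tested passed. Stat2 was at 0.971 and 2.87 RPKM in WT and 0.974 and 4.07 RPKM in KO. Irf9, the DNA-binding partner of STAT2, was at 2.39 and 7.59 RPKM in WT and 2.96 and 9.12 RPKM in KO. Irf9 was higher in KO by about the same step in both numbers (log2 differences of 0.26 and 0.25), whereas Stat2 differed in replicate 2 (0.44) and hardly in replicate 1. Irf7, which amplifies interferon production, was at 0.149 and 0.730 RPKM in WT and 0.317 and 0.775 RPKM in KO. Irf1, a transcription factor best known for the response to interferon gamma, was at 1.61 and 5.37 RPKM in WT and at 1.01 and 5.24 RPKM in KO. It was the only signalling factor that was lower in KO within both numbers. Trim25, the ubiquitin ligase that acts on RIG-I, was at 7.52 and 12.3 RPKM in WT and 10.5 and 11.7 RPKM in KO, and its replicate numbers differed in direction. Usp18, which removes ISG15 from proteins and dampens the receptor, was below the minimum in 3 libraries, with 0.0641 and 0.403 RPKM in WT and 0.212 and 0.626 RPKM in KO.

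Ifi27l1, a gene for a small membrane protein of the interferon-induced Ifi27 family (mm9, chromosome 12, 104672399 to 104678456, plus strand), had 4.07 (WT1), 10.3 (WT2), 13.9 (KO1) and 24.0 RPKM (KO2). Both KO libraries were above both WT libraries. It rose by a log2 change of 1.42 (SE 0.18, limma adjusted p 0.00587), whereas limma without the number gave an SE of 0.54 and an adjusted p of 1.00. Its 5 transcript rows share start and end, and NM_194069 carried most of the level, with 3.78 and 9.08 RPKM in WT and 12.5 and 22.6 RPKM in KO. Any reads shared with relatives of the family leave its level uncertain. The call ended when the highest transcript stood for each gene (adjusted p 0.0747) and with no filter on low values (0.416), both in limma with the replicate number.

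Isg15, a ubiquitin-like protein that is joined to other proteins during infection (mm9, chromosome 4, 155573533 to 155574928, minus strand), was at 1.73 RPKM in WT1 and 5.35 in KO1, and at 10.5 in WT2 and 17.8 in KO2. KO was above WT within each number, and WT2 was above KO1. It rose by 1.06 on the log2 scale (SE 0.20, limma adjusted p 0.0372). That call is close to the threshold: the adjusted p was 0.0975 with a pseudocount of 0.1, 0.0548 with a pseudocount of 1, 0.194 with the highest transcript and 0.487 with no filter, in the same limma design. Isg20, an exonuclease gene that degrades viral RNA, was at 0.925 and 0.827 RPKM in WT and 0.785 and 1.44 RPKM in KO, with no common direction.

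**Figure D3:**
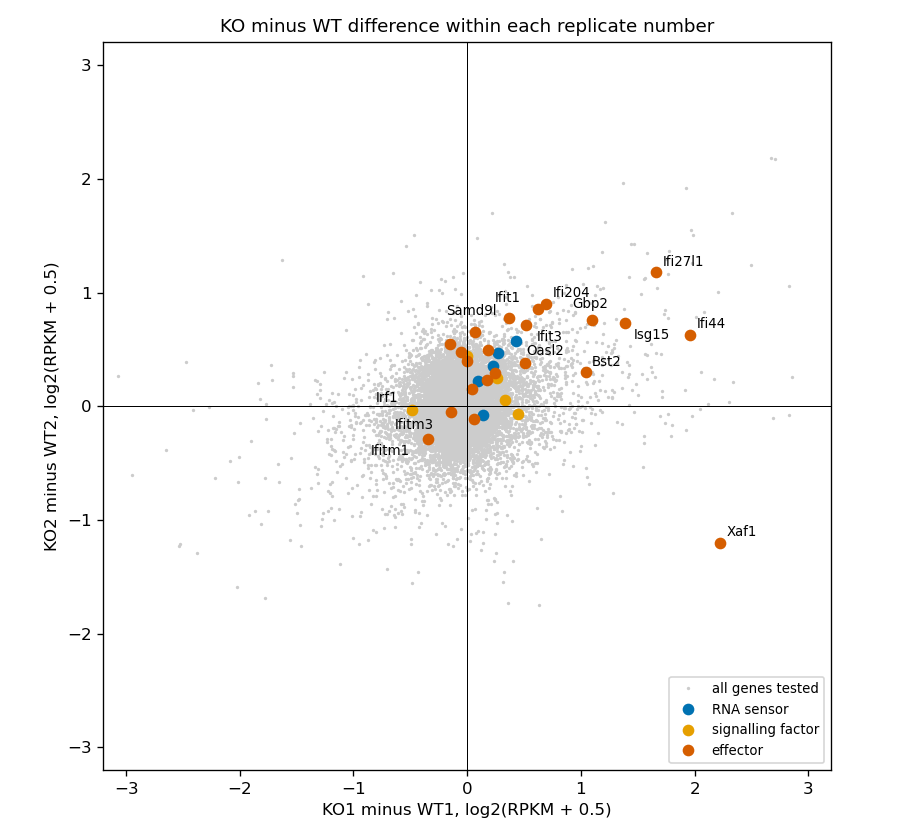
Difference KO1 minus WT1 (x) against KO2 minus WT2 (y), both in log2(RPKM + 0.5), for all 11149 genes tested (grey) and the 32 tested genes of the antiviral list (coloured by role). Of the 32, 22 lie in the upper right part, higher in KO within both numbers, and 3 in the lower left, whereas Xaf1 lies at 2.22 and -1.20.

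The Ifit genes encode proteins that bind foreign RNA ends and block their translation, and they neighbour each other on chromosome 19. Ifit1 was at 0.241 and 2.47 RPKM in WT and 0.641 and 4.89 RPKM in KO (log2 difference 0.74, SE 0.18, limma adjusted p 0.12). Ifit3 was at 0.542 and 4.53 RPKM in WT and 0.993 and 7.76 RPKM in KO (0.62, SE 0.18, limma adjusted p 0.21). Both were higher in KO within each number, and neither passed. Ifit1 passed with median-ratio scaling (adjusted p 0.0485) and with quantile normalization (0.0279) in limma with the replicate number. The distance between replicate numbers was much larger than that between genotypes for both. Ifit2 was at 2.57 and 3.92 RPKM in WT and 2.45 and 5.65 RPKM in KO, so that KO was higher in replicate 2 alone. These genes and Hells lie on the same chromosome, with 4.28 Mb between the end of Ifit1 and the start of Hells (mm9).

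Ifi44 and the genes of the p200 family, which bind DNA, had low WT levels. Ifi44 was at 0.0598 and 0.489 RPKM in WT and at 1.68 and 1.03 RPKM in KO (log2 difference 1.30, SE 0.35, limma adjusted p 0.35). The KO libraries were both higher, and the step was much larger in replicate 1 than in replicate 2. Ifi204, a p200 gene, was at 1.57 and 1.22 RPKM in WT and at 2.84 and 2.70 RPKM in KO (0.80, SE 0.18, limma adjusted p 0.096). Ifi204 passed with median-ratio scaling (adjusted p 0.0365) and with quantile normalization (0.0280) in limma with the replicate number. Its genotypes did not overlap, and unlike most of these genes it was at about the same level in both replicate numbers. Ifi205, a close relative, was at 0 and 0.0140 RPKM in WT and 0.127 and 0.0319 RPKM in KO. Any reads shared among the related p200 genes cannot be assigned with certainty. Ifi35, which was at 2.38 and 2.99 RPKM in WT and 2.75 and 3.60 RPKM in KO, had log2 differences of 0.17 and 0.23 in the replicate numbers.

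The membrane proteins that stop virus entry or release included the most abundant of these genes. Ifitm3, which blocks entry from endosomes, was at 156.0 and 291.1 RPKM in WT and at 141.5 and 280.8 RPKM in KO. Ifitm2 was at 84.6 and 169.4 RPKM in WT and at 88.2 and 156.8 RPKM in KO. The genotypes were close within each number, with log2 differences from -0.14 to 0.06 for these genes. The difference for Ifitm2, -0.03 in limma, turned positive with median-ratio scaling and quantile normalization. Ifitm1, the family member at the cell surface, was at 0.507 and 2.27 RPKM in WT and 0.291 and 1.77 RPKM in KO, lower in KO within both numbers (log2 difference -0.32, limma adjusted p 0.66). Bst2, or tetherin, which holds budding virus particles at the cell, was at 6.53 and 21.3 RPKM in WT and at 14.0 and 26.3 RPKM in KO (0.67, SE 0.20, limma adjusted p 0.24). KO was higher within each number for Bst2, with WT2 above KO1. Ifitm2 and Ifitm3 are related genes, and the handling of any reads they share is not given, so their split is uncertain.

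The guanylate-binding proteins and immunity-related GTPases attack the vacuoles of intracellular microbes and answer strongly to interferon gamma. Gbp2 was at 0.629 and 0.856 RPKM in WT and at 1.92 and 1.79 RPKM in KO (log2 difference 0.93, SE 0.18, limma adjusted p 0.0521). Both KO libraries were above both WT libraries, and Gbp2 missed the threshold. It passed with a filter of 1 RPKM (adjusted p 0.0431), with median-ratio scaling (0.0179) and with quantile normalization (0.00808) in limma with the replicate number. Gbp3 was at 0.227 and 0.616 RPKM in WT and at 0.248 and 0.740 RPKM in KO. Igtp was at 0.254 and 2.07 RPKM in WT and at 0.392 and 2.65 RPKM in KO. Irgm1, a regulator of these GTPases, was at 11.9 and 10.1 RPKM in WT and at 11.9 and 13.4 RPKM in KO. Thus Gbp3, Igtp and Irgm1 differed by 0.10, 0.27 and 0.20 on the log2 scale, with SEs of 0.15 to 0.17. Iigp1 was at 0.0385 and 0.868 RPKM in WT and at 0.0665 and 1.66 RPKM in KO, which is 1.73 times the WT level in replicate 1 and 1.91 times in replicate 2.

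Of the remaining effectors, Samd9l, which inhibits translation in infected cells, was at 1.74 and 3.27 RPKM in WT and at 2.39 and 5.94 RPKM in KO (log2 difference 0.57, SE 0.19, limma adjusted p 0.28). Parp9 was at 0.950 and 2.79 RPKM in WT and 1.57 and 3.77 RPKM in KO. Parp14, like Parp9 an ADP-ribosyltransferase family gene, was at 0.224 and 0.666 RPKM in WT and 0.324 and 1.14 RPKM in KO. Samd9l, Parp9 and Parp14 were higher in KO within both numbers, and none passed. Xaf1, which promotes apoptosis, was at 0.119 RPKM in WT1 and 2.39 in KO1, but at 2.62 in WT2 and 0.859 in KO2. Its replicate numbers thus pointed in opposite directions, with log2 differences of 2.22 and -1.20, and its limma adjusted p was 0.98. Mx1, Mx2, Rsad2 and Gbp6, classical antiviral effectors, lay between 0 and 0.383 RPKM in all libraries and were not tested. Mx1 and Rsad2 were lower in KO within both numbers and Gbp6 was higher, whereas Mx2 had no common direction. In total 12 matched genes were not tested, with levels from 0 to 0.626 RPKM, and Oas3, Zbp1 and Mx1 were below 0.1 RPKM in all 4 libraries.

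**Figure D4:**
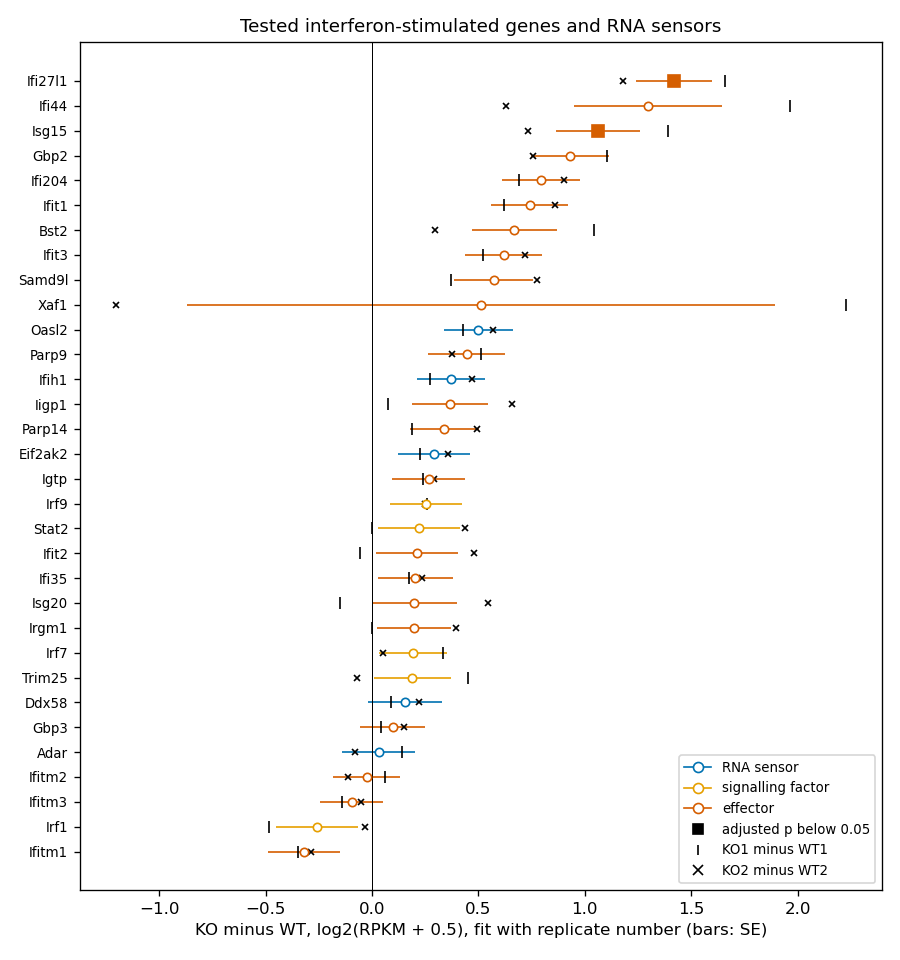
Log2 difference between KO and WT of the 32 tested genes in limma with the replicate number (points, with bars of 1 SE), beside KO1 minus WT1 (vertical tick) and KO2 minus WT2 (cross). The filled squares, Ifi27l1 at 1.42 and Isg15 at 1.06, passed the adjusted threshold, and Xaf1 has the widest bar (SE 1.38).

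The replicate number went with larger differences than the genotype. For 34 of the 44 genes both replicate 2 libraries lay above both replicate 1 libraries, against 50.6% of all genes. The reverse held for 0, against 2895 of all 16271 genes. In limma with genotype and number, 22 of the 32 tested genes were higher in replicate 2, against 35.8% of all genes tested. Lower in replicate 2 were 0, against 1331 of the 11149 genes tested. The median log2 difference between the numbers was 0.92 for these genes and 0.25 for all genes tested. Ifit3 had a log2 difference of 2.37 between the numbers and Ifit1 of 2.12, and Isg15 of 1.97. Among the tested genes that were higher in KO without overlap, Gbp2, Ifi204 and Ifi44 had differences of 0.09, -0.16 and 0.15 between the numbers. Ifi27l1, also without overlap, had a difference of 1.00. The value for Ifi44 averages opposite shifts, from 0.0598 to 0.489 RPKM in WT and from 1.68 to 1.03 RPKM in KO. The rows of the libraries also differed by number, with 26886 transcript rows in replicate 1 and 21136 in replicate 2. What the number stands for is not given in the sources used here, and its part in these levels cannot be told apart from the processing.

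The steps before the effectors were read from lists of 99 further genes of the pathway, of which 78 were matched and 58 tested. In limma with the replicate number 2 of the 58 rose, against 0.377% of all genes tested, and 0 fell, against 0.296%. Both were among 25 tested further interferon-stimulated genes, which had a median log2 difference of 0.19, of which 14 were higher in KO within both numbers and 3 were lower, against 2504 and 3498 of the 11149 genes tested. Gbp1, a guanylate-binding protein, rose from 0.743 and 1.08 RPKM in WT to 2.29 and 2.73 RPKM in KO (1.10, limma adjusted p 0.0227). Apol9a, an apolipoprotein L gene, rose from 0.459 and 0.546 RPKM to 1.45 and 1.71 RPKM (1.05, limma adjusted p 0.0209). For both genes all KO libraries were above all WT libraries, and both have relatives that may share reads with them. Each call ended with a pseudocount of 0.1 (limma adjusted p 0.0539 for Gbp1 and 0.0505 for Apol9a), with the highest transcript (0.128 and 0.136) and with no filter (0.434 for each). Ifi47, an immunity-related GTPase, was at 1.01 and 1.28 RPKM in WT and 2.42 and 2.67 RPKM in KO (limma adjusted p 0.059).

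In the opposite direction none passed. Cxcl10, an interferon-induced chemokine, was at 0.961 and 1.79 RPKM in WT and at 0.315 and 1.10 RPKM in KO (limma adjusted p 0.15). Samhd1, which depletes nucleotides needed for viral DNA synthesis, was at 7.97 and 10.1 RPKM in WT and 4.85 and 7.58 RPKM in KO (limma adjusted p 0.28). Nlrx1, a mitochondrial regulator of MAVS signalling, was at 0.757 and 2.94 RPKM in WT and 0.336 and 1.55 RPKM in KO (limma adjusted p 0.15). These 3 were lower in KO within both numbers.

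None of the receptor chains passed the test. Ifnar1 was at 10.1 and 11.7 RPKM in WT and at 11.2 and 11.9 RPKM in KO. Ifnar2 was at 10.6 and 16.0 RPKM in WT and at 11.2 and 15.9 RPKM in KO. These chains bind type I interferon, and each was at a similar level in KO and WT of the same number. For the interferon gamma receptor, Ifngr1 was at 11.3 and 13.8 RPKM in WT and 9.68 and 12.8 RPKM in KO, and Ifngr2 was at 33.8 and 27.03 RPKM in WT and 30.8 and 25.0 RPKM in KO. The median log2 difference was -0.0022 for 8 receptors and kinases, -0.03 for 15 induction adaptors and kinases, -0.03 for 5 transcription factors and 0.04 for 5 inhibitors. Of the 19 interferon genes listed, 16 were matched in the replicate 1 libraries alone and 3 in all 4 libraries. Ifnb1, the interferon gene that fibroblasts induce early, was listed at 0 in WT1 and at 0.0106 RPKM in KO1, and the others were at or near 0. A value listed at 0 in these files cannot be read as absence.

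**Figure D5:**
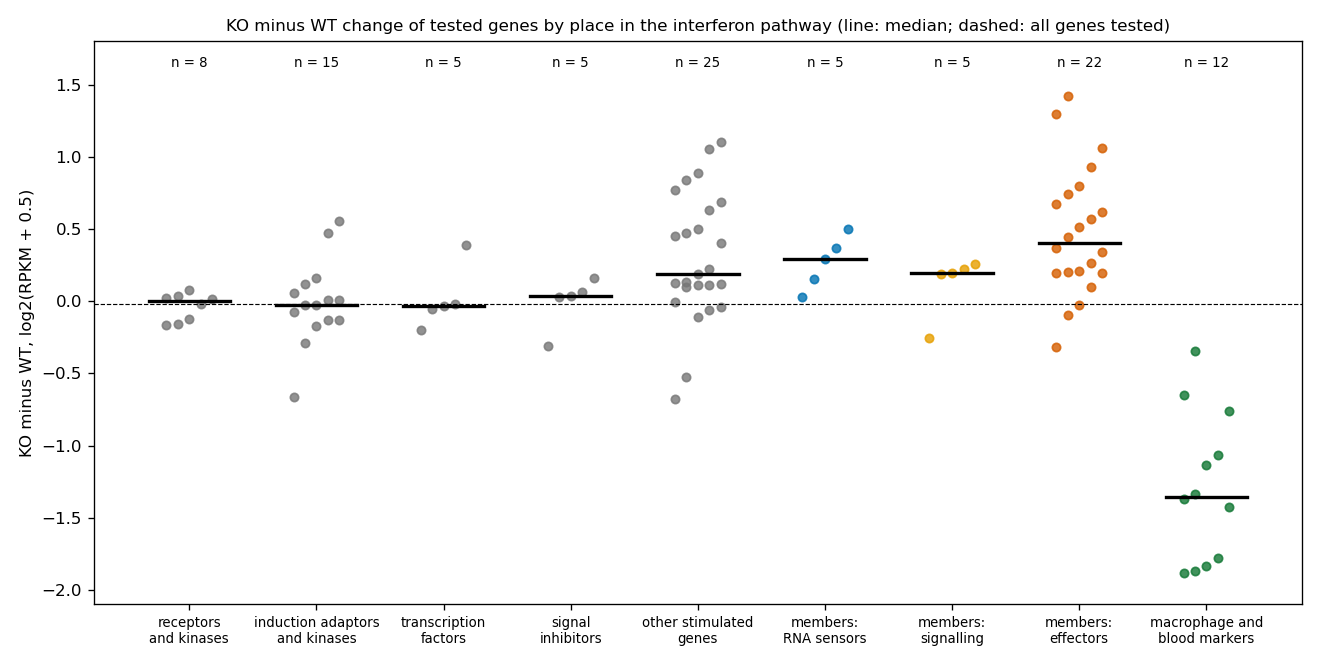
Log2 difference between KO and WT in limma with the replicate number, for tested genes of 5 pathway lists, of the 3 roles and of macrophage and blood markers, with the median of each (bar) and of all genes tested (dashed line). The effectors (median 0.40) lie above the receptors and kinases (median -0.0022), and the macrophage and blood markers (median -1.35) have the lowest median of the sets drawn.

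Markers of other cell types were examined because immune cells also express these genes. Of 15 macrophage and blood markers, 14 were lower in KO within both numbers, against 29.0% of all genes, and 5 of 12 tested fell in limma with the replicate number, against 0.296% (Cd14, Laptm5, Fcer1g, C1qc and Sfpi1). They summed to 61.7 (WT1), 179.8 (WT2), 8.48 (KO1) and 87.7 RPKM (KO2). It was thus lower in KO, where the interferon-stimulated genes were mostly higher, and higher in replicate 2, where these genes were higher as well. The lymphocyte markers that were matched in all 4 libraries summed to 0.0518 to 0.167 RPKM, and Cd3e and Cd3d were listed at 0 in the replicate 1 libraries. The plasmacytoid dendritic cell list, which shares Bst2, summed to 12.9 and 38.4 RPKM in WT and 17.9 and 45.7 RPKM in KO, and its defining marker Siglech was listed at 0 in the replicate 1 libraries. Endothelial markers summed to 1.63 and 1.89 RPKM in WT and 0.611 and 2.34 RPKM in KO, and epithelial markers to 16.5 and 18.1 RPKM in WT and 5.95 and 5.83 RPKM in KO. Of 3 tested epithelial markers 2 fell in limma with the replicate number, against 0.296% of all genes tested. These were Krt19 (log2 change -1.73, limma adjusted p 0.0019) and Krt7 (-1.07, limma adjusted p 0.023). Of all 8 epithelial markers, 3 were lower in KO within both numbers and 1, Epcam, was higher. Krt19 carried much of the epithelial sum, with 13.4 and 9.78 RPKM in WT and 3.56 and 2.70 RPKM in KO. The part of these cells in the levels of the interferon-stimulated genes was not tested.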

How the data were processed

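RNA of 4 libraries was used, and the 18 other samples described in the labels (input, RNA polymerase II and histone mark samples) are not analysed here. The deposited values are RPKM per RefSeq transcript, computed by the authors. The submitters' processing notes name Partek and the build mm9; Cufflinks is named in the readme that came with them. Not given in the sources used here are the aligner, its handling of reads with several matches and the use of strand. Mapped reads were recovered from whole-read steps of olfactory receptor rows (whole within 0.02 of a read).

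Transcript rows were summed per symbol, and genes that reached 0.5 RPKM in 2 or more libraries were tested as log2(RPKM + 0.5) of the deposited RPKM, on which no further scaling was done. limma 3.58.1 in R 4.3.3 (lmFit, eBayes with trend and robust variance) was two-sided with Benjamini-Hochberg adjustment over all 11149 genes and a threshold of 0.05; it was tested on simulated data. The planned design has genotype only. The design with the replicate number is printed beside it because the libraries split by number: same-numbered libraries deviated together (Pearson's r 0.875 across genes, which are not independent, and 0.52 over the tested members). It leaves 1 residual degree of freedom, so that the variance pooled over genes largely sets its p-values.

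The members and lists were chosen with earlier results of these data known, so no list was tested. SE and adjusted p are given for members past the threshold, filled to 10 by smallest p with the replicate number. Of the pathway lists, genes past the threshold, the 3 of smallest p per direction and the receptors are named; 1 further gene that the rule names is not reported here. Xaf1, Irf1 and Ifitm1 are named with a p or difference after their values were seen. Differences outside the rule are also given for Adar, Irf9, Stat2, Ifi35, Ifitm2 and Ifitm3. Gbp3, Igtp and Irgm1 have differences and SEs outside it as well. Alternatives changed the pseudocount, filter, scaling, transcript summary and libraries used. Promoters and symbols came from RefSeq tables (44 of 45 genes matched by accession).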

Additional observations from a re-analysis of the deposited data

How the results depend on the processing

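With genotype as the only term, 0 genes passed under each alternative run. With the replicate block, 75 genes passed (42 higher and 33 lower in KO), 2 of them of the 32 tested genes of the antiviral list and 2 of the 58 pathway genes. Under the replicate block the counts over all genes, the antiviral list and the pathway genes were 37, 1 and 0 with a pseudocount of 0.1, 59, 1 and 2 with a pseudocount of 1, and 70, 3 and 2 with a filter of 1 RPKM. They were 148, 5 and 5 with median-ratio scaling, 216, 5 and 7 with quantile normalization, 3, 0 and 0 with the highest transcript, and 0, 0 and 0 with no filter. The median log2 difference of the tested antiviral genes was 0.41 with a pseudocount of 0.1, with or without the block, and was above 0 in every alternative except without WT1 (-0.17) and without KO2 (-0.11). Leaving out each library in turn, possible without the block only, gave medians from -0.17 to 0.75. The log2 difference then ran from -0.090 to 2.21 for Isg15, from -0.38 to 1.86 for Ifit1, from -0.62 to 1.85 for Ifit3, from -0.15 to 1.49 for Bst2, from -0.38 to 1.37 for Oasl2 and from -0.0057 to 1.15 for Samd9l. These fits compare unequal mixes of replicate numbers and assume that a lone library varies like the others. For Ifi27l1 (0.80 to 2.04), Gbp2 (0.80 to 1.06), Ifi204 (0.66 to 0.93) and Ifi44 (0.88 to 1.71) the direction held in each of the 4. The 12 untested genes, at 0 to 0.626 RPKM, were left out by the filter of 0.5 RPKM in 2 libraries.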
